A study of Homo sapiens with 2 samples.

Results

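Cholesterol and fatty acid synthesis genes were examined in promoter-capture Hi-C of K562 cells, an established human leukaemia line with the BCR-ABL1 fusion. The set held 8 genes of the 20056 protein-coding genes in the RefSeq table: the regulators SREBF1 and INSIG1, the cholesterol enzymes HMGCS1, IDI1 and SQLE, and the fatty acid enzymes FASN, ELOVL6 and SCD. Cells had received ponatinib at 100 nM, which inhibits the ABL kinase, or the vehicle DMSO, for 24 h. Each treatment had 1 library, from equal numbers of harvested cells. In this assay, crosslinked chromatin is cut with HindIII and ligated, and ligation products with a promoter (bait) fragment are captured with RNA probes. A gene was tied to each captured fragment that holds either end of the gene in hg38. Of the 8 genes, 7 had such a fragment in the lists, 1 fragment each. FASN, the gene of the cytosolic fatty acid synthase, had none, and no listed fragment overlapped it, so it was not analysed here. K562 is 1 established line with many chromosome rearrangements, and a fragment's interactions cannot be divided among the genes or the allele copies it holds.

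The deposited lists give 1 line per interaction, with an authors' score that is nowhere below 5. The lists comprised 91305 interactions from 15938 baits in ponatinib and 84049 from 15835 in DMSO. Without replicates the treatment could not be tested, and every difference below rests on 2 libraries of unknown read depth. Intervals are 95% exact binomial (Clopper-Pearson) intervals. They reflect counting error alone and take each interaction as independent, although adjacent fragments are not.

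Sterol and fatty acid synthesis are switched on together by the SREBP transcription factors. These are held in the endoplasmic reticulum membrane by INSIG proteins while sterols are plentiful, and are cut and released to the nucleus when sterols run low. SREBF1 encodes SREBP-1, which favours fatty acid genes, and INSIG1 is itself an SREBP target, which closes a feedback loop. HMGCS1 makes HMG-CoA early in the mevalonate pathway, IDI1 interconverts its 5-carbon isoprene units, and SQLE oxidises squalene and is a rate-limiting step after the mevalonate pathway. ELOVL6 lengthens saturated fatty acids and SCD puts in their double bond. Growing cells use both pathways to build membranes.

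For 6 of the 7 genes the captured fragment lay at the start of the gene. The starts of HMGCS1, INSIG1, ELOVL6, SCD and SREBF1 in the RefSeq promoter table (GRCh38.p14) fell on it, while for SQLE the fragment held the lower-coordinate gene end and an end of its divergent transcript SQLE-DT. The 250 bases before the start are shown for the genes whose start is also the outermost base of the gene. These bases lie on the fragments whose contacts are described. Bases that match 1 of 4 motifs on either strand are in capitals. The motifs were the sterol regulatory element core TCACNCCAC, the E-box CACGTG, the NF-Y box CCAAT and the Sp1 box GGGCGG. All sequences are from RefSeq and run 5′ to 3′ along the gene. HMGCS1 is on the minus strand (chr5:43313413-43313662), INSIG1 on the plus strand (chr7:155297628-155297877), SCD on the plus strand (chr10:100346983-100347232) and SREBF1 on the minus strand (chr17:17836987-17837236).
HMGCS1: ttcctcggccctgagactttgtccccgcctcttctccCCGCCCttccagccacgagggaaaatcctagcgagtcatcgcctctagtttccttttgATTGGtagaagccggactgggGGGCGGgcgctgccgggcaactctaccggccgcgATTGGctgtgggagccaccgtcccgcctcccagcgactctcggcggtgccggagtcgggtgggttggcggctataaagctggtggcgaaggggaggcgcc
INSIG1: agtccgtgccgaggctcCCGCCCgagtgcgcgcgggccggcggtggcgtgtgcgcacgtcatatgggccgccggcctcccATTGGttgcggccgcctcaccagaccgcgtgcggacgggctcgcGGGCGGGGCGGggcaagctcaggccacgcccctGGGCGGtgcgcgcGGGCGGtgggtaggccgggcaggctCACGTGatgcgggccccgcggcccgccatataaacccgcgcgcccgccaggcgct
SCD: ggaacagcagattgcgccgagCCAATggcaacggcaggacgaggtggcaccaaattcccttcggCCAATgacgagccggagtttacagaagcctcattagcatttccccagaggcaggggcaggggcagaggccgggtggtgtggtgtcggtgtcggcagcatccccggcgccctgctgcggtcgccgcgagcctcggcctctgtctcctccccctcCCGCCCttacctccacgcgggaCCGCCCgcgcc
SREBF1: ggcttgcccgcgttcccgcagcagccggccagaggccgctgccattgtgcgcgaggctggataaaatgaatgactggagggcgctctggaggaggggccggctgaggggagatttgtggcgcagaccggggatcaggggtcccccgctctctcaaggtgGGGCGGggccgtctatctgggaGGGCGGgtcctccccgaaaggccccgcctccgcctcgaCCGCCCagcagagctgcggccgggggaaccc
HMGCS1 and SCD had 2 NF-Y boxes and 2 Sp1 boxes each. INSIG1 had 1 E-box, 1 NF-Y box and 5 Sp1 boxes, of which a pair overlaps by 1 base, and SREBF1 had 3 Sp1 boxes. None of the 4 sequences held the letters TCACNCCAC. Not shown are the 250 bases before the ELOVL6 start, with 1 Sp1 box, and before the inner HMGCS1 start, with 2. Both also lie on the captured fragments, and neither held an NF-Y box, an E-box or the sterol element core. Among the 35116 promoters of the table, windows of the same length held the NF-Y box in 32%, the Sp1 box in 42.6%, the E-box in 6.34% and the sterol element core in 0.883%.

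IDI1 was the exception. Its fragment under the rule, chr10:1037722-1043341, held the 3′ end of the gene and none of the 3 starts in the table. A second captured fragment, chr10:1049052-1050134, holds the IDI1 start at 1049119 but no outer end of the gene, so the rule passes over it. A HindIII site separates that start from the IDI1 start at 1048886, which lies on the neighbouring fragment. The 30 bases around the site are shown with the HindIII site in capitals (chr10:1049039-1049068, minus strand, RefSeq GRCh38.p14), because the border of the bait falls inside it.
IDI1 border: caccaccaggcgAAGCTTggcgagattgtg
Values for both IDI1 fragments are given below.

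Together the 7 genes had 140 interactions in ponatinib and 102 in DMSO, of which 64 were the identical fragment pair in both lists. The ratio was 1.37 (1.06 to 1.79), and its interval holds the 1.09 of the whole lists. Without HMGCS1 it was 1.36 (0.994 to 1.87) and without ELOVL6 1.33 (0.996 to 1.79), and both of these intervals hold 1. By any margin, 6 of 7 genes had the higher number in the ponatinib list and 1, IDI1, the lower. The share of all genes with more in ponatinib by any margin was not calculated, and the ponatinib list is the longer. Past a 2-fold difference, with 1 added to both numbers and at least 5 interactions over both lists, were 1 gene with more in ponatinib (SREBF1) and 1 with fewer (IDI1). Over all 9787 genes that reached 5 interactions, 9.92% had at least 2-fold more and 6.26% at least 2-fold fewer. With 7 genes, 1 in each direction is near those shares, and both genes had under 10 interactions over the 2 lists. The median log2 ratio of the 7 genes was 0.47, against 0.08 over all genes tested.

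**Figure D1:**
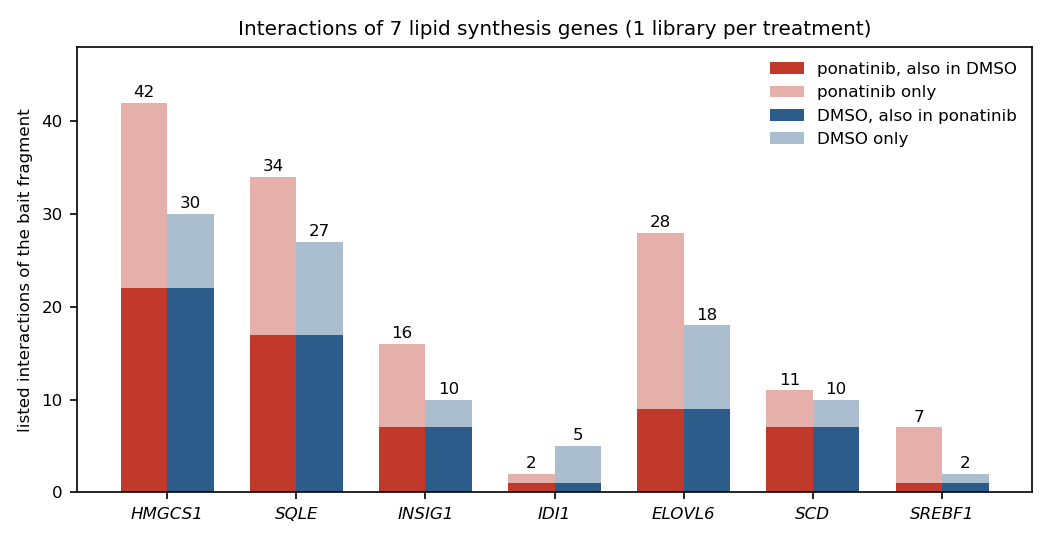
Number of listed interactions (vertical axis) of the bait fragment of each gene, ponatinib left and DMSO right, with 1 library per treatment. Dark parts are fragment pairs in both lists and pale parts pairs in 1 list only. HMGCS1 had the most in each list (42 in ponatinib, 30 in DMSO), and IDI1 is the gene with the lower number in ponatinib (2, against 5 in DMSO).

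SREBF1, whose fragment chr17:17835433-17849046 also holds an end of TOM1L2, a membrane trafficking gene, had 7 interactions in ponatinib and 2 in DMSO. The ratio of 3.5 had an interval of 0.666 to 34.5, which holds 1. The pair in both lists joined it to the SMCR2 fragment 166 kb away, with scores of 6.46 in ponatinib and 5.57 in DMSO. Beside it lay the RAI1 fragment chr17:17679848-17690823, 157 kb away, which scored 11.24 in ponatinib and was not in the DMSO list. RAI1 is a chromatin-associated regulator gene and this was the highest SREBF1 score in either list. A further fragment inside RAI1, 150 kb away, scored 6.07 in ponatinib and was also not in the DMSO list. On the other side, 3 neighbouring fragments at chr17:18035632-18047119, 195 to 201 kb away, were listed in ponatinib with scores of 5.42, 5.46 and 6.01 and none of them in DMSO. They cover ATPAF2, an ATP synthase assembly factor gene, and the last also holds an end of GID4, a ubiquitin ligase receptor gene. The remaining partners were a fragment in ALKBH5 at 5.09 in ponatinib and a fragment with no annotated gene, 236 kb away, at 5.80 in DMSO.

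INSIG1 had 16 interactions in ponatinib and 10 in DMSO, with 7 in both lists, a ratio of 1.6 (0.683 to 3.94). Its fragment chr7:155296316-155302450 also holds an end of the divergent transcript INSIG1-DT. Most partners upstream fell into 2 groups. The near group, chr7:155186108-155218970, 89.9 to 111 kb upstream of the gene, had 5 partners in ponatinib and 4 in DMSO, all 4 of them in both lists. Its outermost fragment scored 11.18 in ponatinib and 5.63 in DMSO, and another scored 8.83 in ponatinib and 5.39 in DMSO. The far group lay at PAXIP1, a gene of the DNA damage response and of histone methylation complexes, 303 to 368 kb away. There the PAXIP1-AS2 fragment scored 11.65 in ponatinib and 7.58 in DMSO, while a fragment inside PAXIP1 scored 6.02 in ponatinib and 8.42 in DMSO. The PAXIP1 promoter fragment itself was listed in DMSO only, at 6.01. Downstream, RBM33, an RNA-binding protein gene, was met at the RBM33-DT fragment in ponatinib (6.03, 344 kb away) and at the adjoining RBM33 fragment in DMSO (6.27, 347 kb away).

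HMGCS1 had the most interactions of the set, 42 in ponatinib and 30 in DMSO, with 22 in both lists. The ratio was 1.4 (0.856 to 2.32). Its strongest contacts formed 2 runs of neighbouring fragments downstream of the gene, toward ZNF131 and beyond it. A run is 3 or more partner fragments with gaps of at most 5 kb between neighbours. This grouping was set after the values were seen. The run at chr5:43056917-43084188, 229 to 247 kb away in the non-coding gene LOC100506639, had 6 partners in ponatinib and 4 in DMSO, with 4 in both. Its top fragment, chr5:43073456-43075644, scored 19.46 in ponatinib and 11.54 in DMSO, the highest ponatinib score of any interaction of the 7 genes. The adjoining fragment scored 12.07 in ponatinib and 6.45 in DMSO, while another in the run was lower in ponatinib, at 11.25 against 12.16 in DMSO.

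The second run, chr5:43095449-43124809, ends inside ZNF131, a zinc finger gene, and had 8 partners in ponatinib and 6 in DMSO, with 6 in both. At scores of 10 or more it had 4 in ponatinib (13.74, 11.67, 10.33 and 10.06) and 1 in DMSO (10.7). Nearer the gene, the run across NIM1K, a kinase gene (chr5:43165781-43246040, 67.1 to 141 kb), had 12 partners in ponatinib and 7 in DMSO, with 6 in both. There the order of scores was turned at the strongest pair, with 7.38 in ponatinib and 11.2 in DMSO. Upstream, fragments in the chemokine gene CCL28 scored 10.22 and 9.82 in ponatinib, against 8.58 and 8.35 in DMSO, while the CCL28 bait fragment scored 6.23 in ponatinib and 8.26 in DMSO. The fragment at NNT, the mitochondrial transhydrogenase gene, 293 kb away, scored 10.21 in ponatinib and was not in the DMSO list. The reverse was seen inside ZNF131 at 161 kb, with 11.09 in DMSO and no listing in ponatinib.

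IDI1 had 2 interactions in ponatinib and 5 in DMSO at its 3′ fragment, with 1 in both lists, a ratio of 0.4 (0.0381 to 2.44). The fold with 1 added was 0.5, which is exactly at the threshold. The shared pair joined it to the fragment that holds ends of LARP4B, an RNA-binding protein gene, and GTPBP4, a GTPase gene of ribosome assembly, 52.1 kb away. It scored 7.53 in ponatinib and 6.73 in DMSO. The fragment with the IDI1 start at 1049119 had 5 interactions in ponatinib and 6 in DMSO, with 2 in both. Its LARP4B and GTPBP4 contact scored 7.78 in ponatinib and 7.82 in DMSO. Its contact with the LARP4B-DT fragment, 118 kb away, scored 9.53 in ponatinib and 5.46 in DMSO. For the 3′ fragment the same LARP4B-DT partner was listed in DMSO only, at 8.43, the highest score of the 3′ fragment in either list. The start fragment also had a contact with chromosome 2 in DMSO only, at 7.72. The excess of DMSO interactions at the 3′ fragment was thus not matched in number at the start fragment, where neither treatment reached a score of 10.

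SQLE had 34 interactions in ponatinib and 27 in DMSO, with 17 in both lists, a ratio of 1.26 (0.737 to 2.17). Nearly all lay toward lower coordinates of chromosome 8, across MTSS1, a gene of an actin and membrane binding protein. The run at chr8:124536717-124611683, 388 to 461 kb from the SQLE fragment chr8:124995210-125003205, had 18 partners in ponatinib and 13 in DMSO, with 11 in both. The next run, chr8:124619481-124675161, had 9 in ponatinib and 5 in DMSO, with 3 in both. The contact with the bait fragment at the upper end of MTSS1, 274 kb away, scored 12.05 in ponatinib and 7.76 in DMSO. Inside MTSS1, 2 other fragments scored 11.48 and 10.27 in ponatinib, against 6.55 and 5.42 in DMSO. The highest DMSO score of any interaction of the 7 genes was also here, 13.8 at chr8:124565820-124574661, where ponatinib had 6.41.

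Between that bait and SQLE, 4 fragments 151 to 253 kb away were listed in DMSO only, with scores of 5.29 to 7.17. Bait partners of SQLE in ponatinib only were fragments of ZNF572, RNF139 and the pair TATDN1 and NDUFB9, at 5.62, 5.07 and 6.82. RNF139 encodes a ubiquitin ligase of the endoplasmic reticulum with a sterol-sensing domain, and NDUFB9 a subunit of respiratory complex I. A listed contact with chromosome 1 scored 5.16 in ponatinib.

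ELOVL6 had 28 interactions in ponatinib and 18 in DMSO, with 9 in both lists, a ratio of 1.56 (0.831 to 2.99). Its partners in both lists made up 32.1% of those in ponatinib and 50% of those in DMSO. Contacts ran into the gene itself and into the regions on both sides of it. Downstream, the run at chr4:110041809-110071571, around the far end of the gene, had 3 partners in ponatinib and 4 in DMSO, with 2 in both. It held the highest ELOVL6 score in DMSO, 8.64 inside the gene at 134 kb, a pair not listed in ponatinib. A run beyond the gene, 170 to 178 kb away, had 1 partner in ponatinib and 2 in DMSO. Upstream, the run at chr4:110238435-110250995, 41.3 to 49.1 kb away, had 4 partners in ponatinib and 3 in DMSO, with 3 in both. It held the ELOVL6 score of 10 or more, 10.53 in ponatinib, against 7.23 in DMSO for the same pair. Inside ENPEP, a peptidase gene 291 to 304 kb away, a run of 4 fragments scored 5 to 7.31 in ponatinib and had none in DMSO. The neighbouring bait fragment inside ENPEP, 316 kb away, was in both lists, at 9.78 in ponatinib and 6.79 in DMSO. A run at 77.9 to 116 kb had 5 partners in ponatinib and 2 in DMSO, with none the same.

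SCD had 11 interactions in ponatinib and 10 in DMSO, with 7 in both lists, a ratio of 1.1 (0.424 to 2.89). All of its partners on chromosome 10 lay downstream, in 2 runs. The run at chr10:100422326-100445654, 82.4 to 97.7 kb away, held no annotated gene end. It had 4 partners in ponatinib and 5 in DMSO, with 4 in both. Its top fragment scored 16.77 in ponatinib and 11.9 in DMSO, and the 2 outermost fragments on the far side scored lower in ponatinib, 5.82 and 5.18, against 7.20 and 7.26 in DMSO. The run at chr10:100500082-100536673 covered SEC31B, a coat protein gene of vesicle transport, and reached NDUFB8, a complex I subunit gene, and HIF1AN, the gene of a hypoxia factor hydroxylase. It had 6 partners in ponatinib and 5 in DMSO, with 3 in both. A pair of neighbouring fragments at SEC31B scored 12.01 and 11.08 in ponatinib, against 7.71 and 8 in DMSO. A contact with chromosome 22 scored 6.8 in ponatinib. It and the SQLE contact with chromosome 1 were the interactions between chromosomes of the 7 genes under the rule. They made up 2 of 140 in ponatinib (1.43%, 0.173 to 5.07%), with 0 of 102 in DMSO (0 to 3.55%). The IDI1 start fragment, outside these numbers, had a contact with chromosome 2 in DMSO only, at 7.72. In the whole lists 7.22% in ponatinib and 7.33% in DMSO joined 2 chromosomes. Pairs across fused chromosomes of K562, such as at BCR-ABL1, were not set apart in these whole-list shares.

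**Figure D2:**
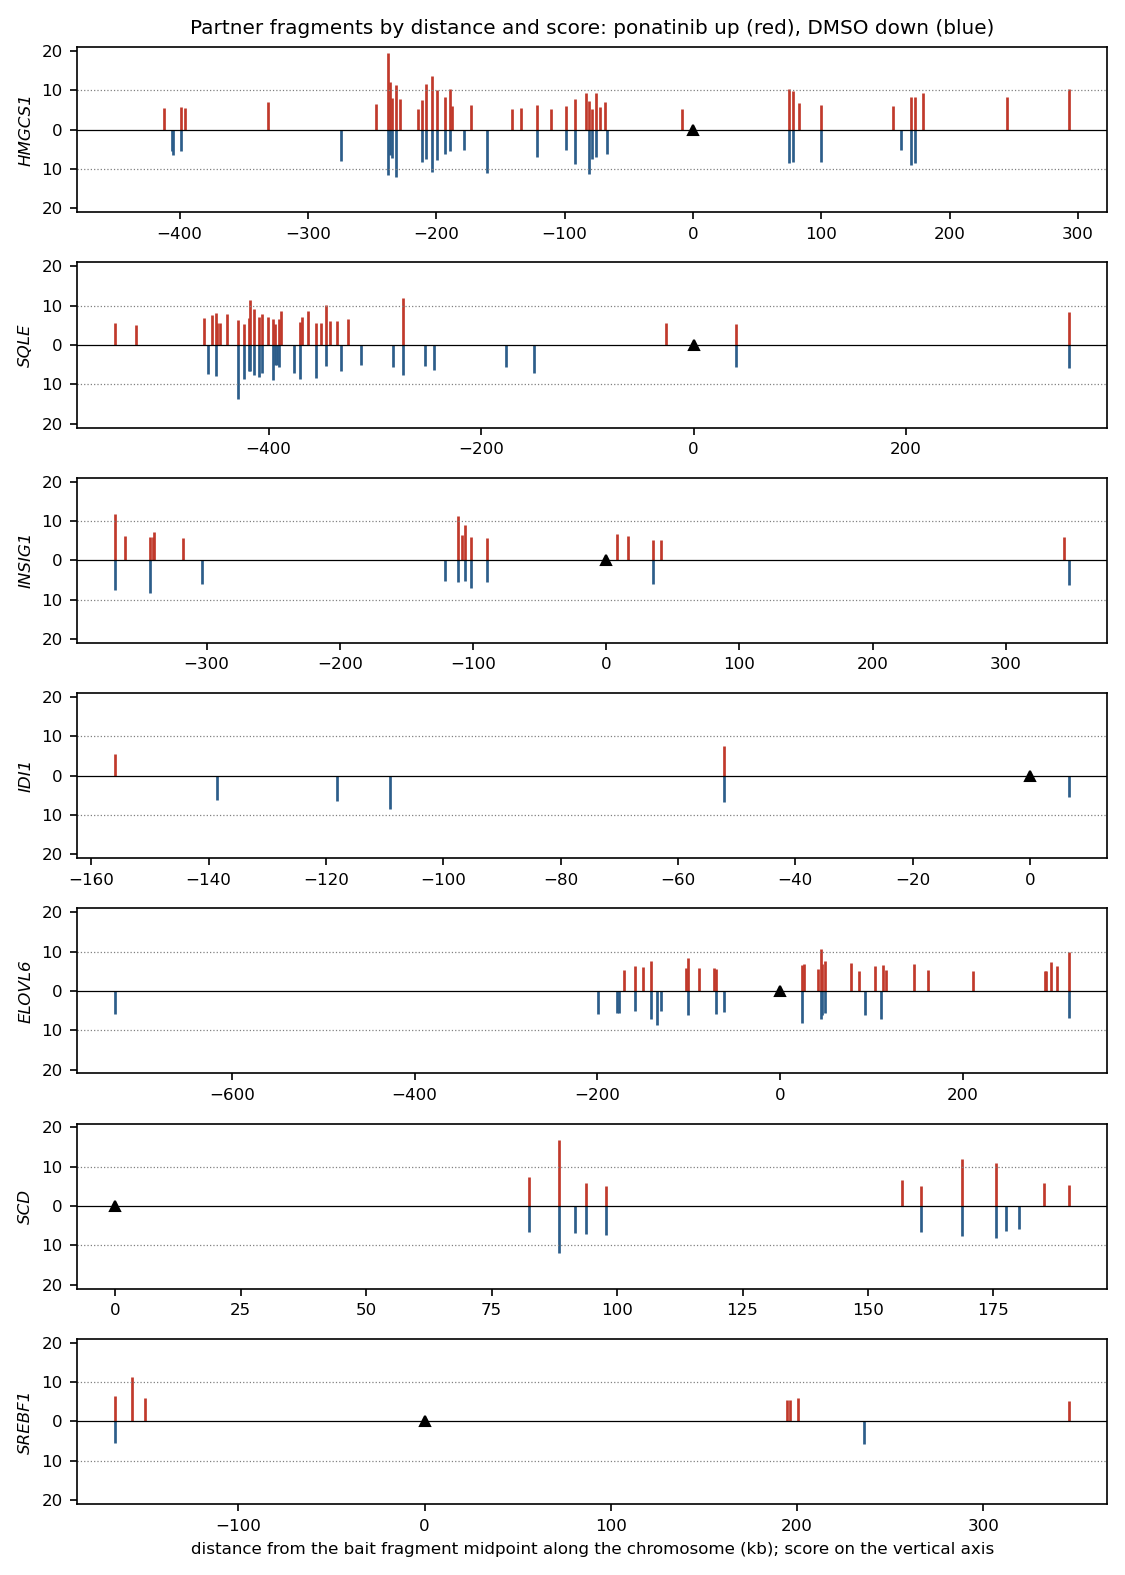
Partner fragments of the 7 genes by distance from the bait fragment midpoint along the chromosome (horizontal axis, kb, scale differs by gene) and by score (vertical axis), ponatinib upward and DMSO downward. Triangles mark the bait fragment and dotted lines a score of 10; contacts with other chromosomes and the HMGCS1 contact in DMSO at 1405 kb are not drawn. The tallest lines are at HMGCS1 (19.46 in ponatinib), SCD (16.77 in ponatinib) and SQLE (13.8 in DMSO).

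At scores of 10 or more the 7 genes had 19 interactions in ponatinib and 7 in DMSO, a ratio of 2.71 (1.09 to 7.64). The whole lists had 14935 in ponatinib and 12533 in DMSO, a ratio of 1.19 (1.16 to 1.22), which lies inside that interval. Such scores made up 13.6% of the interactions of the 7 genes in ponatinib (8.37 to 20.4%), against 16.4% of the whole list. In DMSO they made up 6.86% (2.8 to 13.6%), against 14.9% of the whole list. The share of the 7 genes was thus not above the whole list in ponatinib and was below it in DMSO. Of the interactions at 10 or more in ponatinib, HMGCS1 had 9, SQLE 3, SCD 3, INSIG1 2, ELOVL6 1, SREBF1 1 and IDI1 0. In DMSO HMGCS1 had 5, SQLE 1 and SCD 1, and the other 4 genes had 0. Without HMGCS1 the numbers were 10 in ponatinib and 2 in DMSO, a ratio of 5 (1.07 to 46.9). Without SQLE, without INSIG1 or without SCD the interval of the ratio held 1. A score of 10 or more was thus reached by 6 of the 7 genes in ponatinib and by 3 in DMSO. Over all 13721 genes with a listed bait fragment, 37.9% reached it in ponatinib and 35.5% in DMSO, but genes differ in their number of interactions. Below 10, the 7 genes had 121 interactions in ponatinib and 95 in DMSO, a ratio of 1.27 (0.966 to 1.68).

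Most strong contacts of the 7 genes were in both lists. Of the 19 in ponatinib, 17 were listed in DMSO (89.5%, 66.9 to 98.7%), 4 of them at 10 or more there, and the other 2 were HMGCS1 to NNT and SREBF1 to RAI1. Of the 7 in DMSO, 6 were listed in ponatinib (85.7%, 42.1 to 99.6%). Both shares lie near those of the whole lists, 78.9% of strong pairs in ponatinib and 84% of those in DMSO. Pairs chosen for a high score in 1 list tend by that choice to score lower in the other. Of the 17 chosen in ponatinib, 16 had the lower score in DMSO, against 73.5% in the whole lists, and of the 6 chosen in DMSO, 3 had the lower score in ponatinib, against 60.9%. The exception among the 17 was an HMGCS1 pair with 11.25 in ponatinib and 12.16 in DMSO. Scores just inside the threshold were 10.06 and 10.21 at HMGCS1, and those just outside were 9.82 at HMGCS1 and 9.78 at ELOVL6, all in ponatinib. In DMSO the nearest were 10.7 and 9.11, both at HMGCS1.

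Among the 64 pairs in both lists, 40 (62.5%, 49.5 to 74.3%) had the higher score in ponatinib, against 53.6% of all 37194 pairs in both lists. The median score of the 64 was 7.65 in ponatinib and 7.22 in DMSO. By gene, the higher score was in ponatinib for 13 of 22 at HMGCS1, 10 of 17 at SQLE, 4 of 7 at INSIG1, 7 of 9 at ELOVL6 and 4 of 7 at SCD. At SQLE the medians lay the other way, 6.87 in ponatinib and 7.62 in DMSO. Each score is the authors' own value within its list, so these comparisons describe the lists and not the strength of contacts.

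**Figure D3:**
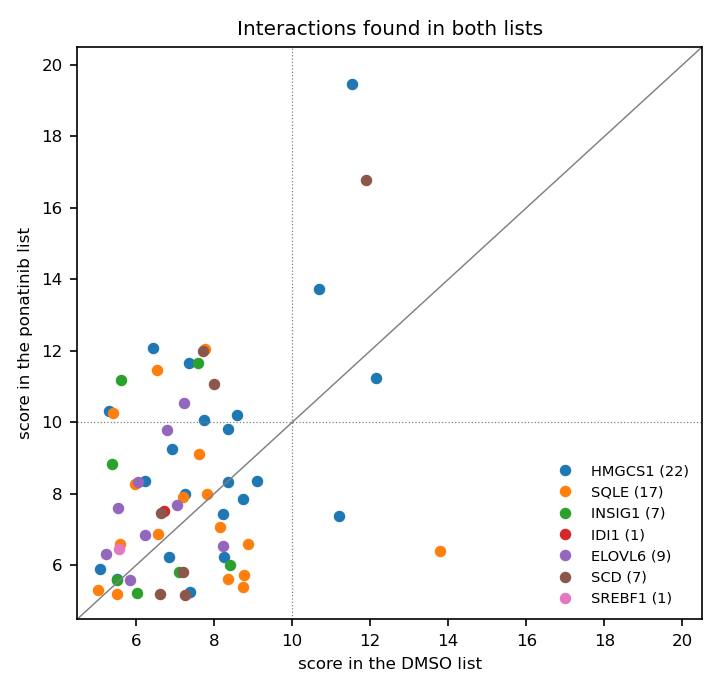
Scores in the ponatinib list (vertical axis) against scores in the DMSO list (horizontal axis) for the 64 fragment pairs of the 7 genes that were in both lists. The solid line marks equal scores and dotted lines a score of 10. Of these pairs 40 lie above the line, and the upper left field holds the 13 that reached 10 in ponatinib only.

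Interactions in both lists made up 45.7% of those of the 7 genes in ponatinib (37.3 to 54.3%) and 62.7% in DMSO (52.6 to 72.1%). In the whole lists the shares were 40.7% in ponatinib and 44.3% in DMSO. The interval of the 7 genes holds the whole-list share in ponatinib and lies above it in DMSO. The whole lists held larger shares of pairs between chromosomes and had longer median distances. Their shares were not calculated for pairs of like distance. In 1 list only were 76 interactions in ponatinib and 38 in DMSO, a ratio of 2 (1.34 to 3.04). The whole lists had 54111 such interactions in ponatinib and 46855 in DMSO, a ratio of 1.15 (1.14 to 1.17). Their median scores were 6.03 in ponatinib and 6.04 in DMSO, below those of the shared pairs. Many were next to a partner in the other list: 47 of the 76 in ponatinib only had a DMSO partner of the same gene within 5 kb, and 18 of the 38 in DMSO only had a ponatinib partner within 5 kb. With both ends matched within 5 kb, a counterpart was found for 80% of the ponatinib interactions of the 7 genes. For their DMSO interactions it was 83.3%. Neither these shares nor the numbers within 5 kb were calculated for the whole lists.

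Partners lay at similar distances in both lists. The median distance was 187 kb in ponatinib and 177 kb in DMSO, with quartiles of 99.4 and 342 kb in ponatinib and 100.2 and 340 kb in DMSO. In the whole lists the medians were 242 kb in ponatinib and 234 kb in DMSO. Beyond 1 Mb there were 0 of 140 in ponatinib and 1 of 102 in DMSO, the HMGCS1 contact with the RIMOC1 fragment at 1405 kb, which scored 8.07. The partner was itself a bait fragment in 20 interactions in ponatinib (14.3%, 8.95 to 21.2%) and 16 in DMSO (15.7%, 9.24 to 24.2%), against 18.7% of the whole ponatinib list and 19.1% of the whole DMSO list.

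Other captured fragments around each gene mostly had more interactions in ponatinib as well. For bait fragments within 1 Mb, leaving out the gene's own interactions, the numbers were 69 in ponatinib and 52 in DMSO around HMGCS1, a ratio of 1.33 (0.912 to 1.94). Around ELOVL6 they were 212 in ponatinib and 162 in DMSO (ratio 1.31, 1.06 to 1.62), and around SREBF1 they were 111 in ponatinib and 81 in DMSO (ratio 1.37, 1.02 to 1.85). Around INSIG1 the ratio was 1.26, around SQLE 1.16 and around SCD 1.07. IDI1 was again the exception with 21 in ponatinib and 24 in DMSO, a ratio of 0.875 (0.463 to 1.64). For all 7 genes the gene and its surroundings lay on the same side of 1, but the whole lists already had a ratio of 1.09. The intervals of the surroundings of ELOVL6 and SREBF1 held that value. Each gene's interval held the ratio of its surroundings, but intervals as wide as 0.0381 to 2.44 (IDI1) or 0.666 to 34.5 (SREBF1) would hold most ratios. The part that the surroundings have in the genes' numbers was not tested. The window of 1 Mb was chosen after the values of the genes were seen.

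**Figure D4:**
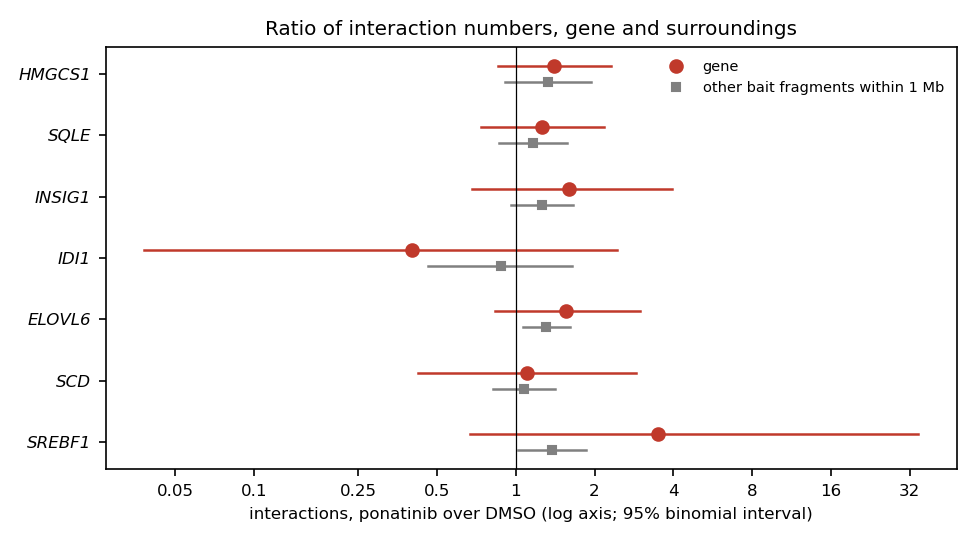
Ratio of interaction numbers, ponatinib over DMSO (horizontal log axis), for each gene (circles) and for the other bait fragments within 1 Mb (squares), with 95% exact binomial intervals as lines. HMGCS1 (1.4, surroundings 1.33) and SCD (1.1, surroundings 1.07) lie close to their surroundings, and IDI1 (0.0381 to 2.44) and SREBF1 (0.666 to 34.5) have the longest lines.

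The genes whose captured fragments met the most similar partners were neighbours. Likeness was the Jaccard index of the partner fragments over both lists, with at least 3 partners in common. Nearly all partners lay on the gene's own chromosome, so this measure could hardly pick a distant gene. For INSIG1 and for SCD only 1 gene was a candidate. For HMGCS1 the most alike gene was CCL28, 99.9 kb away, with 14 partners in common of 50 for HMGCS1 and 18 for CCL28 (index 0.259). CCL28 had 12 interactions in ponatinib and 11 in DMSO. For SQLE it was ZNF572 with 7 in common (index 0.146), for INSIG1 PAXIP1 with 5 (0.179), for IDI1 GTPBP4 with 5 (0.227), for SCD PKD2L1 with 4 (0.25) and for SREBF1 ATPAF2 with 3 (0.2). In ponatinib and DMSO, ZNF572 had 7 and 5 interactions, PAXIP1 7 and 9, and GTPBP4 15 and 14. PKD2L1 had 5 in ponatinib and 1 in DMSO, and ATPAF2 had 7 in ponatinib and 3 in DMSO. No gene on another fragment had 3 partners in common with ELOVL6.

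Of 55 other genes of sterol and fatty acid synthesis and its control, 43 had a listed bait fragment and 36 reached 5 interactions over both lists. At least 2-fold more in ponatinib were 2 of the 36 genes, against 9.92% of all 9787 genes that reached 5 interactions. NSDHL, a sterol demethylation enzyme gene, had 8 in ponatinib and 2 in DMSO, on fragments that also hold an end of CETN2, and the fatty acid elongase gene ELOVL7 had 7 in ponatinib and 3 in DMSO. At least 2-fold fewer were also 2 of the 36, against 6.26% of all 9787 genes. Neither number is above the share over all genes. TMEM97, a sterol-regulated membrane protein gene, had 2 in ponatinib and 7 in DMSO, and GGPS1, which makes geranylgeranyl diphosphate, had 4 in ponatinib and 10 in DMSO, with a fragment shared with ARID4B. By any margin 17 genes had more, 15 fewer and 4 equal numbers, and the median log2 ratio was 0, against 0.08 over all genes.

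These 43 genes had 347 interactions in ponatinib and 325 in DMSO, a ratio of 1.07 (0.915 to 1.25), against 1.09 in the whole lists. At scores of 10 or more they had 61 in ponatinib and 54 in DMSO, a ratio of 1.13 (0.770 to 1.66), against 1.19 in the whole lists. ELOVL5 had 14 in ponatinib and 7 in DMSO, and LPIN1, a phosphatidate phosphatase gene, had 10 in ponatinib and 5 in DMSO, both just under 2-fold with 1 added. ACAT2, at the entry of the cholesterol pathway, had 5 in ponatinib and 10 in DMSO, and the NADPH-supplying malic enzyme gene ME1 had 2 in ponatinib and 4 in DMSO. Many of these fragments hold ends of several genes; FADS1 and FADS2 share their fragment and so have the same numbers, 8 in ponatinib and 9 in DMSO.

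**Figure D5:**
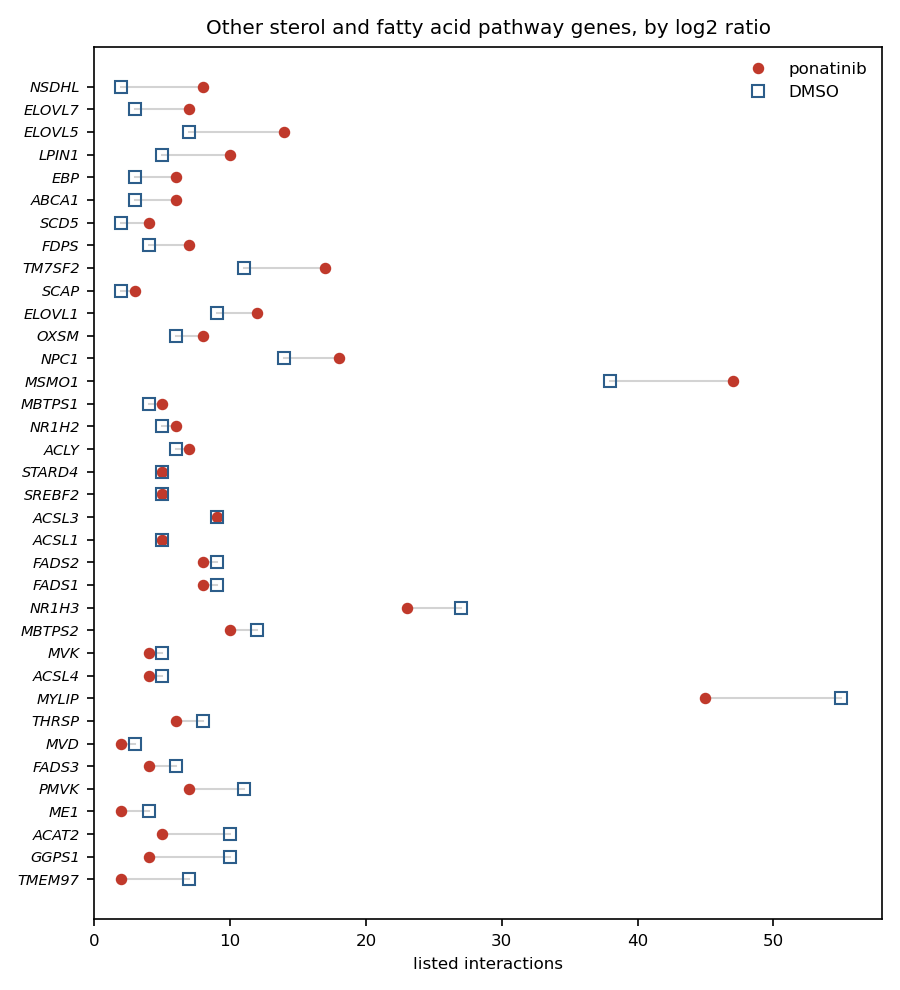
Listed interactions (horizontal axis) of the 36 other pathway genes with at least 5 over both lists, ponatinib as filled circles and DMSO as open squares, ordered by log2 ratio. NSDHL is at the top (8 in ponatinib, 2 in DMSO) and TMEM97 at the bottom (2 in ponatinib, 7 in DMSO).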

How the data were processed

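K562 cells treated with ponatinib or DMSO gave 1 promoter-capture Hi-C library each. For each library the authors deposited a list of interactions with a score, their own value for the pair. Coordinates are in hg38 according to the submitters' processing notes. The aligner, caller and score definition are details not given in the sources used here, and the lists hold no read counts, so depth is unknown, and scores were not normalised between libraries.

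An interaction was an unordered pair of fragments; 1 pair in ponatinib was listed in both orientations and counted once. Genes, starts and promoter sequences came from RefSeq tables of GRCh38.p14. Promoter sequences were matched by symbol for 6 of the 8 genes; the plan covered windows of 300 bases, and the 250 bases before the start are reported. Distances are between fragment midpoints. The members and gene lists were chosen with earlier results of these data known. Named were the members, genes at partners of score 10 or more and at top partners, genes on the same fragment, the most alike gene, and up to 4 pathway genes at each extreme. Some other partner genes were named after their values were seen. Counting and calls were tested on simulated lists. Alternatives were scores of at least 7 or 10, a strong threshold of 15, equal list lengths, pairs on 1 chromosome, gene ends within 1 kb, matching within 5 or 10 kb, a pseudocount of 0.5, scaling by list length, a minimum of 10 and leaving out each gene. Python 3.11.15, pandas 2.3.3, SciPy 1.17.1 and matplotlib 3.10.9 were used.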

Additional observations from a re-analysis of the deposited data

How the results depend on the processing

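No paired analysis was possible because each treatment has 1 library. The ratio of all interactions of the 7 genes stayed between 1.22 (scores of at least 7) and 1.42 (without IDI1) under the alternatives run, except at scores of at least 10, where it was 2.71. Its interval held 1 at scores of at least 7 (0.809 to 1.85), in lists of equal length (0.992 to 1.69), after scaling by list length (0.972 to 1.65), without HMGCS1 (0.994 to 1.87) and without ELOVL6 (0.996 to 1.79). The ratio at scores of 10 or more lay between 2.43 (without INSIG1) and 5 (1.07 to 46.9, without HMGCS1), with intervals that held 1 without SQLE (0.991 to 8.32), without INSIG1 (0.957 to 6.93) and without SCD (0.991 to 8.32); with a strong threshold of 15 there were 2 interactions in ponatinib and 0 in DMSO, so no ratio. SREBF1 and IDI1 had too few interactions to be called under the stricter scores and the stricter minimum, so their fold differences were not assessed there. With scores of at least 7, with scores of at least 10 and with a minimum of 10 interactions there were 0 genes with more and 0 with fewer, out of 5, 1 and 5 that reached the minimum. With bait fragments that hold a transcription start, an alternative chosen after seeing the data, there were 0 genes with fewer, since the IDI1 start fragment replaced the one at its 3′ end. Among the other pathway genes the number with fewer was 1 at scores of at least 7, with gene ends within 1 kb and with a minimum of 10, 4 in lists of equal length, 3 for pairs on 1 chromosome and 0 at scores of at least 10. The number with more was 1 after scaling by list length, 0 at scores of at least 10, and 3 at scores of at least 7, for pairs on 1 chromosome and with gene ends within 1 kb. Shares over all genes were not calculated under these alternatives. Interactions in both lists made up 80% of ponatinib and 83.3% of DMSO with ends matched within 5 kb, 84.3% of ponatinib and 90.2% of DMSO within 10 kb, and 21.1% of ponatinib when scores of 10 or more were required, where 0% of DMSO partners were baits. Shares with matched ends were not calculated for the whole lists. When scores of 7 or more were required, SCD had 4 interactions in ponatinib and 5 in DMSO. Thus 44.4% of the SCD interactions were in ponatinib, against 52.4% at all scores. The cause of these differences was not tested, beyond fewer interactions at stricter scores. The numbers per gene are small and depth is unknown, so none of the 7 ratios by gene differs from 1 beyond counting error.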
